A study of Mus musculus with 12 samples.

Results

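The 10 genes described here belong to the AP-1 and immediate early response and were measured in sorted alveolar type II (ATII) cells of the mouse lung: Fos, Fosb, Fosl1, Fosl2, Jun, Junb, Jund, Atf3, Egr1 and Ier2. They were chosen by name, and their 10 symbols were found in all 12 libraries among 23238 symbols. Each library came from 1 mouse, and 3 mice made up each of 4 groups. Con mice received PBS, and are called WT in the sample titles and Spc-p300 f/f in the study, whose methods also speak of C57BL/6 mice. BLM mice were named in the same way and received 4 mg/kg bleomycin into the trachea, an agent that causes DNA strand breaks and is widely used to model lung fibrosis in mice. KO mice (Spc-p300 d/d) were p300 knockouts made with the tamoxifen-inducible Spc-CreERT2 driver, which is active in ATII cells, and received PBS, and KOBLM mice were such knockouts that received bleomycin. The LoxP sites flank exon 9 of p300 (gene symbol Ep300), and the labels of all 12 libraries carry the same text, 10 mg/kg tamoxifen at 8 weeks of age before bleomycin. The study also describes Spc-p300 f/f mice given vehicle in place of tamoxifen, and which of them the Con and BLM mice received was not settled from these sources. The time between bleomycin and harvest is not given in the sources used here. Cells of the dissociated lungs were stained for CD74 and EpCAM and sorted by flow cytometry, and libraries were made with a kit that reads the 3′ end of polyadenylated RNA. All 4 groups went through the same dissociation and sort, and no sample without it was analysed here.

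AP-1 is a dimer of basic leucine zipper proteins. A Jun protein (Jun, Junb or Jund) pairs with another Jun protein or with a Fos protein (Fos, Fosb, Fosl1 or Fosl2), and the dimer binds DNA at the TRE sequence or the CRE sequence. Atf3 belongs to the related ATF group and can pair with Jun proteins. Immediate early genes are transcribed within minutes of a growth factor, injury or stress signal without new protein synthesis, through MAP kinases that act on factors already bound at the promoters, and most of their mRNAs are short-lived. In the lung, AP-1 factors are known for their part in inflammatory and matrix gene transcription, and p300 is a histone acetyltransferase that several of them recruit.

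The promoter segments below are shown because Fos, Jun, Junb, Fosb and Atf3 are the genes on which most of the values turn and because their upstream sequences differ in the AP-1 and CRE letters they hold. Each is the 100 bases before the RefSeq start site on GRCm38.p6, on the strand of the gene, with matches to TGACGT, TGACATCA and TATAAA on either strand in capitals.
Fos, chr12:85473790-85473889, plus strand: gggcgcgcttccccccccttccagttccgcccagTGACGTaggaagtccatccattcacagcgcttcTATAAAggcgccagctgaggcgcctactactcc
Jun, chr4:95052223-95052322, minus strand: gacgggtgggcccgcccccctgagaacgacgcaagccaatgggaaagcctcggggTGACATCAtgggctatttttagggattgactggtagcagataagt
Atf3, chr1:191183334-191183433, minus strand: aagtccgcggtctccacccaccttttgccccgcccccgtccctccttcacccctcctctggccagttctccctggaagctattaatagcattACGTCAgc
Junb, chr8:84978749-84978848, minus strand: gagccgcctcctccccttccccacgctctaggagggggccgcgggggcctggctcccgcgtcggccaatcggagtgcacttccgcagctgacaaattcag
Fosb, chr7:19310046-19310145, minus strand: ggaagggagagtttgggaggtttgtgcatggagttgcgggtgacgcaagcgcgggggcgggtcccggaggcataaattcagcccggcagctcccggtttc

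Windows of 300 bases, 250 before and 50 after the start site, were matched for 7 of the 10 genes. Fosl1, Egr1 and Ier2 were not searched, and neither was sequence farther from the start sites. The CRE core TGACGT was found in 2 of these 7 windows, in Fos at positions -66 to -61 and, as ACGTCA on the other strand, in Atf3 at -8 to -3, beside 7.51% of 32851 RefSeq promoter windows. The variant TGACATCA was found in 1 of them, Jun at -45 to -38, beside 3.62% of all windows. The TRE TGACTCA and the CArG box, the binding sequence of serum response factor, were found in 0 of the 7 windows, beside 5.20% and 1.63% of all windows. TATAAA was found in Fos at -33 to -28 and in Junb at 1 to 6, beside 13.6% of all windows. These are matches of letters within a window and describe neither binding nor regulation.

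On GRCm38 with GENCODE M21, Jun, Junb, Jund and Ier2 are genes of 1 exon in their longest coding transcript, Egr1 has 2 exons, and Fos, Fosb, Fosl1, Fosl2 and Atf3 have 4. Over the last 500 nt of these transcripts, where the kit reads, no stretch of 50 nt was shared with another annotated gene for 9 of the 10. The exception was Fosl1, whose 3′ end lies on the opposite strand of Ccdc85b and shares 451 of these stretches with it. The files do not say whether counting used strand, so the Fosl1 counts are uncertain. The annotated span of Junb also overlaps Prdx2 on the opposite strand at its 3′ end (84974484 to 84974834). Junb transcripts other than the longest coding one were not checked.

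The libraries held 7005005 to 11153154 counts each, and 3 counts, taken as the detection floor, were 0.269 to 0.428 CPM (a gene's count times 1000000 over all counts of its library). Only counting error enters such a floor. The deletion could not be checked from Ep300 in these libraries, because the reads lie at the 3′ end and not in exon 9. The study itself reported checks of the deletion by qRT-PCR in primary ATII cells and by co-staining in lungs. It also stained for surfactant protein C to determine the purity of its ATII cells. Ep300 stood at 51.0 to 143 CPM in Con and 103 to 154 CPM in the libraries labelled KO. The ATII label was only partly borne out by the markers: the summed level of 13 ATII markers was 186 to 2211 CPM, while 17 macrophage markers summed to 1045 to 39242 CPM and stood above the ATII sum in all 12 libraries. Fewer cells of a type and less RNA per cell cannot be told apart in such bulk samples.

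BLM replicate 3 stood apart before any comparison. It had 6847 genes with a count against 8790 to 13838 in the other 11 libraries, a macrophage marker sum of 1045 CPM against 7852 to 39242, and a sum of 2872 CPM for 15 pluripotency markers against 0.648 to 17.97 CPM. Its 14 heat shock genes summed to 18068 CPM against 2999 to 8014. The fold changes described for BLM against Con and KOBLM against BLM are therefore also given without it.

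Most of the 10 genes were among the abundant transcripts of these libraries, where 3′ counting needs no scaling by transcript length. Together they held 0.394% to 0.817% of all counts in 11 libraries and 0.0633% in BLM replicate 3. Outside BLM replicate 3, Jun ranked between 23rd and 173rd of all genes of a library by count, Fos between 52nd and 159th, Junb between 21st and 345th and Jund between 59th and 375th. Egr1 ranked between 93rd and 1634th, Fosb between 84th and 756th and Fosl2 between 232nd and 1005th. Atf3 and Ier2 stood lower, with best ranks of 413 and 1020, and Fosl1 was at or near 0. BLM replicate 3 was the lowest of the 12 libraries for 8 of the 10 genes (80.0%), beside 35.9% of the 8977 genes with a mean of at least 10 CPM. Its level was 6.91 to 23.3 times lower than the mean of the other BLM libraries for Fos, Fosb, Fosl2, Jun, Junb, Jund and Egr1, and 1.74 times lower for Ier2.

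**Figure D1:**
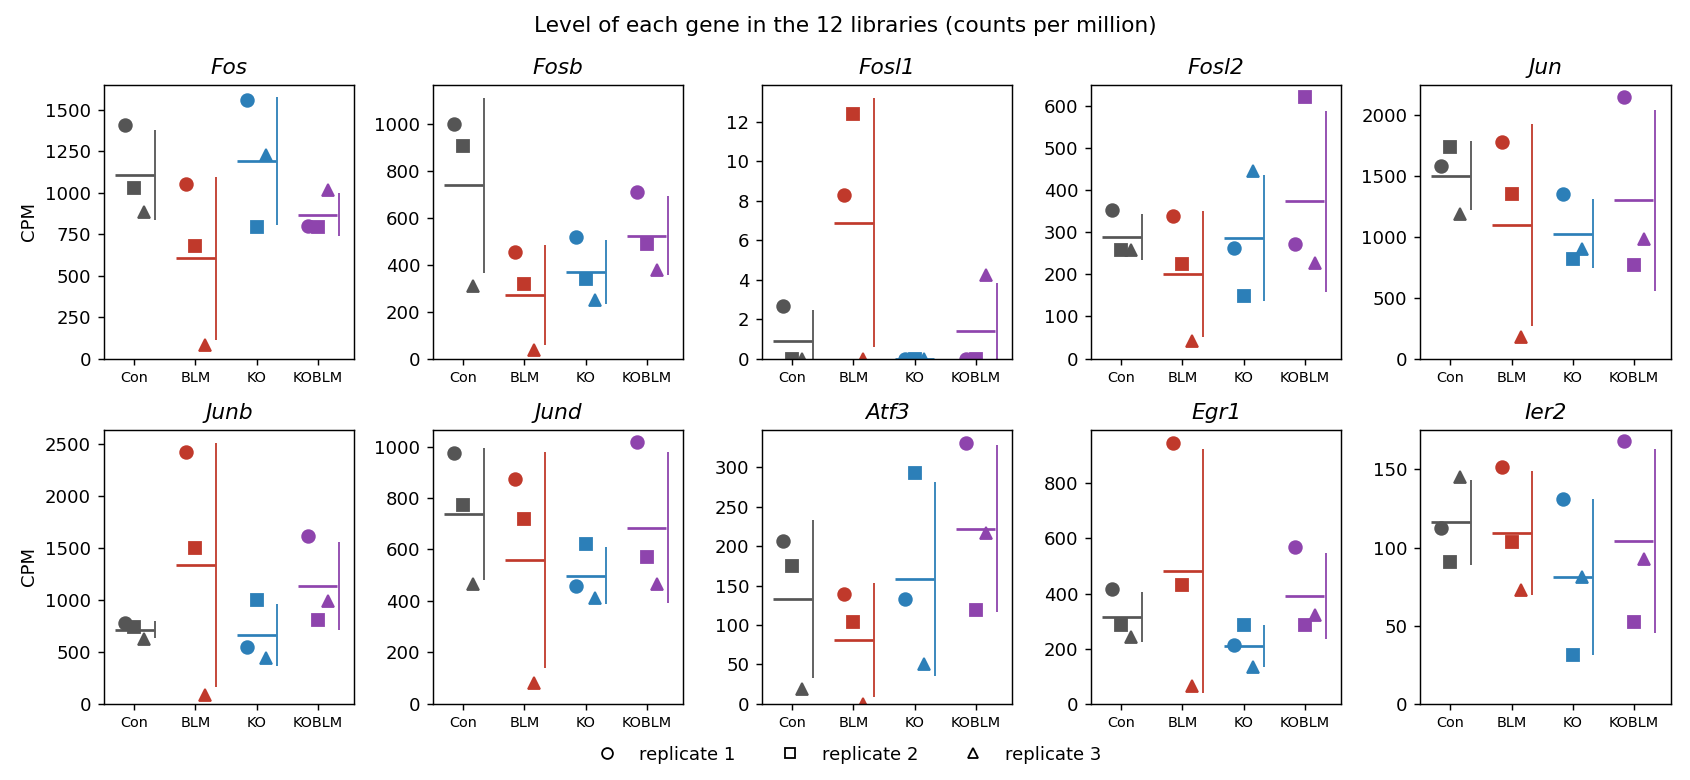
CPM of each of the 10 genes (vertical axes, linear, from 0) in the 4 groups, with 1 point per library, horizontal lines at group means and vertical lines of 1 SD cut at 0. The third BLM library lies lowest of all 12 for 8 genes, and the groups overlap in each of the 4 pairwise comparisons.

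In the comparison of 4 groups, no gene of the set passed the threshold used for this study, a fold change over 1.5 with an unadjusted p under 0.05 in edgeR's quasi-likelihood test. The count was 0 of 10 for BLM against Con, where 4.27% of 13054 tested genes passed, and 0 of 10 for KOBLM against BLM, where 3.16% passed. It was 0 of 10 for KO against Con beside 1.44% of all genes, 0 of 10 for KOBLM against KO beside 1.69%, and 0 of 10 for the interaction, the difference between the bleomycin effects of the genotypes, beside 2.82%. DESeq2 also called 0 of 10 in each of the 5, and an unadjusted p under 0.05 was reached by 0 of 10. All 10 genes had passed the low-count filter, Fosl1 through the few libraries in which it had counts.

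In CPM the groups overlapped for all 10 genes in the 4 pairwise comparisons. The share of tested genes whose groups did not overlap was 17.1% for BLM against Con, 11.0% for KOBLM against BLM, 9.74% for KO against Con and 6.82% for KOBLM against KO. With 3 mice against 3, an exact two-sided permutation test of the means cannot give a p under 0.1, and the lowest that a member reached was 0.2.

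Among the Fos proteins, Fos itself, a classical partner of Jun, was expressed in every library. It stood at 1409, 1026 and 884 CPM in Con and at 1053, 681 and 79.4 CPM in BLM. It stood at 1557, 790.4 and 1225 CPM in KO and at 796, 791 and 1018 CPM in KOBLM. BLM replicate 1 lay inside the Con range and the other BLM libraries below it, and the KO and KOBLM ranges overlapped. The log2 fold change of Fos was -0.76 ± 0.68 (SE) for BLM against Con (edgeR p = 0.286, adjusted p = 1, exact permutation p of the CPM means = 0.3) and -0.43 ± 0.68 for KOBLM against KO (edgeR p = 0.534, adjusted p = 1). Without BLM replicate 3 the first of these was -0.22 ± 0.37 (edgeR adjusted p = 1).

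Fosb, which forms AP-1 dimers like Fos and is known for a stable short splice form that 3′ counts do not resolve, gave the lowest p of the set for BLM against Con. It stood at 999.8, 905 and 309 CPM in Con and at 456, 319.5 and 37.0 CPM in BLM. It stood at 519, 341 and 250.5 CPM in KO and at 708, 486 and 379 CPM in KOBLM. Con replicates 1 and 2 lay above all BLM libraries, and Con replicate 3 lay within the BLM range. The log2 fold change was -1.34 ± 0.76 (SE) for BLM against Con (edgeR p = 0.101, adjusted p = 0.998, exact permutation p of the CPM means = 0.3), -0.87 ± 0.76 for KO against Con (edgeR p = 0.268, adjusted p = 1) and 0.94 ± 0.76 for KOBLM against BLM (edgeR p = 0.235, adjusted p = 1). The interaction was 1.81 ± 1.07 (edgeR adjusted p = 1). Without BLM replicate 3 the value for KOBLM against BLM was 0.41 ± 0.51 and the interaction 1.28 ± 0.69 (edgeR adjusted p = 1 for both). The fold for BLM against Con was then -0.81 ± 0.52 (edgeR adjusted p = 0.919), and without BLM replicate 1 it was -1.90 and passed the threshold.

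Fosl2, which lacks the strong activation domain of Fos, was the least variable of the Fos genes in Con. It stood at 351, 256 and 258 CPM in Con and at 337, 224 and 40.6 CPM in BLM. It stood at 262, 149 and 445 CPM in KO and at 272, 619.9 and 226 CPM in KOBLM. The highest library of all was KOBLM replicate 2, and the ranges of the 4 groups overlapped. For Fosl2 the log2 fold change was -0.41 ± 0.69 (SE) for BLM against Con (edgeR p = 0.556, adjusted p = 1, exact permutation p of the CPM means = 0.4) and 0.86 ± 0.69 for KOBLM against BLM (edgeR p = 0.231, adjusted p = 1). Without BLM replicate 3 the first of these turned to 0.09 and the second was 0.36 ± 0.46 (edgeR adjusted p = 1).

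Fosl1, a Fos protein that usually accumulates later than Fos, was counted in only 4 libraries. They were Con replicate 1 with 20 counts, BLM replicates 1 and 2 with 58 and 94 counts, and KOBLM replicate 3 with 38 counts, and the other 8 libraries had 0. In CPM these were 2.67, 8.28, 12.4 and 4.21. Ccdc85b, the gene that shares its 3′ end, had 125, 133, 222 and 91 counts in the same 4 libraries and 857 in KOBLM replicate 2, where Fosl1 had 0. The fitted log2 fold change for BLM against Con was 3.11 ± 3.55 (SE, edgeR adjusted p = 1), and 3.70 ± 3.59 without BLM replicate 3 (edgeR adjusted p = 1). No fold against KO is given, because KOBLM rests on 1 library and KO is at 0 in all.

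Among the Jun proteins, Jun, the founding member, was the most abundant of the set by its median. It stood at 1584, 1738 and 1192 CPM in Con and at 1777, 1352 and 174 CPM in BLM. It stood at 1351, 822 and 904 CPM in KO and at 2151, 767 and 985 CPM in KOBLM. KO replicates 2 and 3 lay below all Con libraries and KO replicate 1 within their range. For Jun the log2 fold change was -0.34 ± 0.69 (SE) for BLM against Con (edgeR p = 0.629, adjusted p = 1, exact permutation p of the CPM means = 0.7) and -0.45 ± 0.69 for KO against Con (edgeR p = 0.528, adjusted p = 1). Without BLM replicate 3 the first of these turned to 0.18.

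Junb, which can dampen Jun-driven transcription and also activates genes of its own, had the tightest Con libraries of the set. It stood at 780.2, 738 and 623 CPM in Con and at 2422, 1501 and 84.3 CPM in BLM. It stood at 547, 1001 and 440.1 CPM in KO and at 1613, 803 and 992 CPM in KOBLM. BLM replicates 1 and 2 lay above every Con library and BLM replicate 3 below, so the groups overlapped only through BLM replicate 3. The log2 fold change for BLM against Con was 1.02 ± 0.82 (SE, edgeR p = 0.233, adjusted p = 1, exact permutation p of the CPM means = 0.4) and that for KOBLM against KO was 0.72 ± 0.82 (edgeR p = 0.396, adjusted p = 1). For KOBLM against BLM it was -0.24 ± 0.81 (edgeR adjusted p = 1).

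Jund, the Jun protein that is present in resting cells and is not a classical immediate early gene, stood at 974, 775 and 465 CPM in Con and at 876, 717 and 80.5 CPM in BLM. It stood at 459, 622 and 412 CPM in KO and at 1018, 569 and 466 CPM in KOBLM. All group ranges overlapped. The log2 fold change for BLM against Con was -0.29 ± 0.71 (SE, edgeR p = 0.690, adjusted p = 1, exact permutation p of the CPM means = 0.6), and without BLM replicate 3 it turned to 0.24.

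Atf3, a stress-induced factor that often represses its targets, varied widely between mice of a group. It stood at 206, 175 and 18.9 CPM in Con and at 139, 104 and 0 CPM in BLM. It stood at 133, 293 and 50.2 CPM in KO and at 331, 119 and 216 CPM in KOBLM. BLM replicates 1 and 2 lay inside the Con range and BLM replicate 3 below it. For Atf3 the log2 fold change was -0.60 ± 1.42 (SE) for BLM against Con (edgeR p = 0.679, adjusted p = 1, exact permutation p of the CPM means = 0.5) and 1.44 ± 1.45 for KOBLM against BLM (edgeR p = 0.336, adjusted p = 1). Without BLM replicate 3 these were -0.02 ± 0.85 and 0.85 ± 0.87.

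Egr1, a zinc finger factor induced with the AP-1 genes through the same kinases, stood at 415, 286 and 243 CPM in Con and at 948, 432 and 64.4 CPM in BLM. It stood at 215, 285 and 133 CPM in KO and at 569.7, 284 and 321 CPM in KOBLM. As for Junb, BLM replicates 1 and 2 lay above all Con libraries and BLM replicate 3 below. For Egr1 the log2 fold change was 0.72 ± 0.76 (SE) for BLM against Con (edgeR p = 0.357, adjusted p = 1, exact permutation p of the CPM means = 0.7), -0.29 ± 0.75 for KOBLM against BLM (edgeR p = 0.704, adjusted p = 1) and 0.84 ± 0.76 for KOBLM against KO (edgeR p = 0.287, adjusted p = 1). For KOBLM against KO, the lowest KOBLM library of Egr1, at 284.0 CPM, lay just under the highest KO library, at 285.0 CPM. Ier2, an early-induced nuclear protein, stood at 113, 91.0 and 145 CPM in Con and at 151, 104 and 73.1 CPM in BLM, with overlapping ranges. In KO it stood at 131, 30.9 and 81.4 CPM and in KOBLM at 168, 52.0 and 92.6 CPM. Its log2 fold change for BLM against Con was -0.03 ± 0.67 (SE, edgeR p = 0.969, adjusted p = 1, exact permutation p of the CPM means = 0.8), and without BLM replicate 3 it was 0.27 ± 0.59.

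The order of the group means differed between genes. BLM had the lowest mean of the 4 groups for Fos (604 ± 491 CPM, SD, n = 3), Fosb (271 ± 214), Fosl2 (201 ± 149.7) and Atf3 (81.1 ± 72.4). It had the highest mean for Junb (1336 ± 1178 CPM), Egr1 (482 ± 444) and Fosl1 (6.89 ± 6.32). In each of these cases the SD of BLM was at least as large as its distance from the next group in the order, so neighbouring groups did not differ beyond their spread.

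Leaving out BLM replicate 3 changed the picture for Junb and Egr1. With the remaining 11 libraries, 2 of the 10 genes passed the threshold for BLM against Con, beside 5.45% of 14084 tested genes. Junb rose by a log2 fold change of 1.58 ± 0.46 (SE, edgeR adjusted p = 0.456) and Egr1 by 1.25 ± 0.49 (edgeR adjusted p = 0.769). In CPM, 3 of the 10 did not overlap between these BLM and the Con libraries, Junb, Egr1 and Fosl1, all higher, beside 31.5% of all tested genes. For KOBLM against BLM without that library, 1 of 10 did not overlap, Fosl1 with lower values, beside 23.4% of all genes. Junb was then -0.80 ± 0.46 and Egr1 -0.83 ± 0.49 for KOBLM against BLM (edgeR adjusted p = 1 for both), neither past the threshold. Since BLM replicate 3 was set aside after its values were seen, these values are a description of the other 11 libraries.

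**Figure D2:**
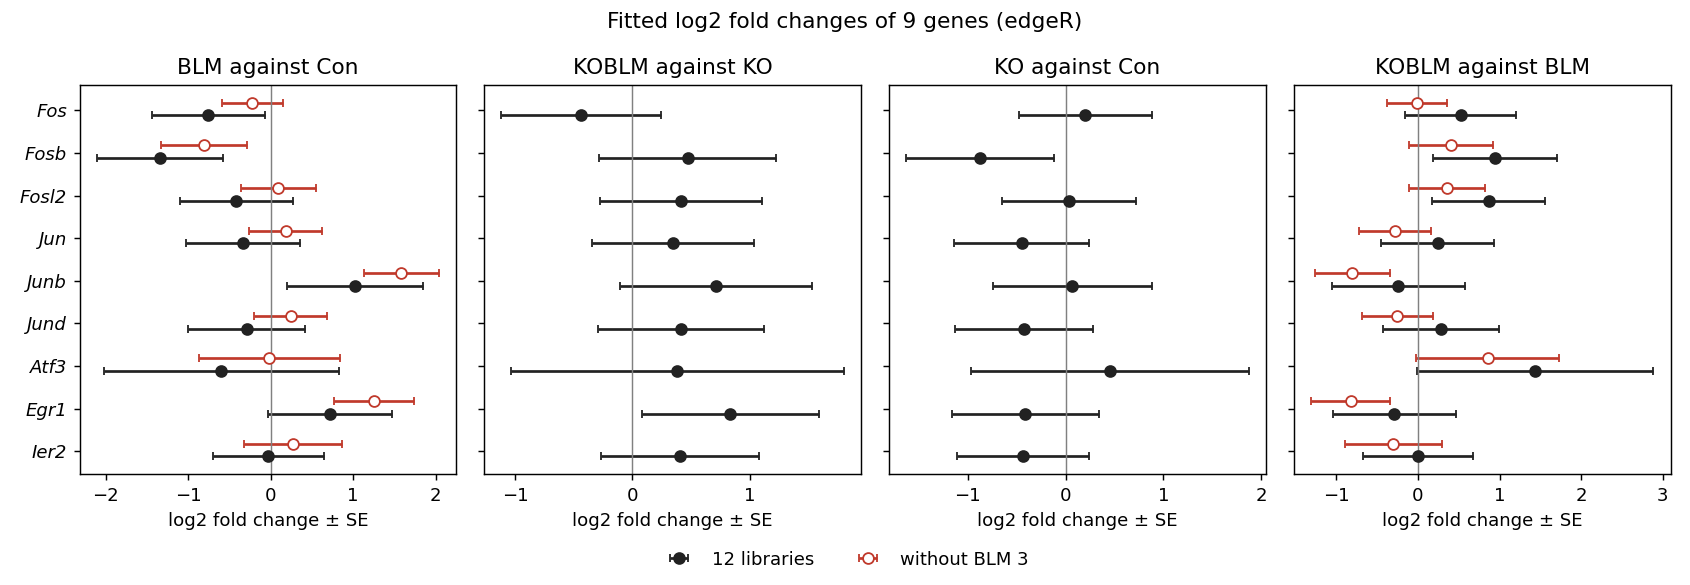
Log2 fold changes with their SE (horizontal axes) of 9 of the genes in the 4 pairwise comparisons, from the edgeR fit of all 12 libraries (filled) and, where BLM takes part, of 11 libraries without BLM replicate 3 (open). Junb lies at 1.02 and 1.58 and Egr1 at 0.72 and 1.25 for BLM against Con, while Fosb lies below 0 in both fits.

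Macrophage markers differed between the same libraries. C1qa stood at 950.3 and 956 CPM in BLM replicates 1 and 2 and at 16.3 CPM in BLM replicate 3, against 0 to 23.3 CPM in Con. In KO replicate 2, which had the highest Junb of its group, C1qa stood at 568 CPM, against 8.11 and 123 CPM in the other KO libraries. The orders differed in KOBLM, where Junb was highest in replicate 1 (1613 CPM, C1qa 209 CPM). There C1qa was highest in replicate 3 (363 CPM, Junb 992 CPM). They also differed in Con, with Junb highest in replicate 1 and C1qa in replicate 2. Over the whole list of 17 macrophage markers, the sum was 9576, 10291 and 1045 CPM in BLM and 10450 to 22637 CPM in Con, and 4 markers were higher and 3 lower in BLM by the threshold. Of 12 ATII markers tested, 4 were lower and 0 higher in the same comparison, where 4.27% of all tested genes passed. Without BLM replicate 3, 5.45% of all tested genes passed. Of the macrophage markers 6 were then higher and 4 lower, and of the ATII markers 1 was higher and 4 lower. Neutrophil markers summed to 5778, 1927 and 143 CPM in BLM and to 104, 260 and 3771 CPM in Con. The part of other cells in the Junb and Egr1 values was not tested.

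The balance between members within a library does not depend on the library total. Of the summed counts of the 10 genes, Fos held 20.6%, 17.1% and 21.4% in Con and 12.9%, 12.5% and 12.6% in BLM. Fosb held 14.6%, 15.1% and 7.48% in Con and 5.58%, 5.86% and 5.85% in BLM. Egr1 held 6.08%, 4.78% and 5.86% in Con and 11.6%, 7.94% and 10.2% in BLM. For these 3 of the 10 genes the shares did not overlap between BLM and Con, with BLM replicate 3 included and close to the other BLM libraries in its Fos and Fosb shares although its level was far below theirs. Beside this, 14.2% of 13044 other genes did not overlap when their counts were divided by the same sum. Those genes include low counts and are not part of the sum, so this share is only a rough comparison. Of all ratios of 2 tested genes with a mean of at least 100 CPM, 32.8% did not overlap between BLM and Con.

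For KOBLM against BLM the shares of 3 genes did not overlap, beside 8.73% of the other genes. The ratios of 2 tested genes with a mean of at least 100 CPM gave 19.9% in this comparison. Fosb held 8.07% to 10.8% in KOBLM against 5.58% to 5.86% in BLM, Atf3 2.64% to 4.60% against 0 to 1.91%, and Egr1 6.32% to 7.47% against 7.94% to 11.6%. In these libraries Fosb and Atf3 thus took a larger share of the sum in KOBLM, and Egr1 a smaller one. For KO against Con and for KOBLM against KO the shares of all 10 genes overlapped.

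The balance was also read from ratios of 2 members. The Junb/Fos ratio of counts was 0.554, 0.719 and 0.705 in Con and 2.30, 2.20 and 1.06 in BLM. In KO it was 0.351, 1.27 and 0.359, and in KOBLM 2.03, 1.01 and 0.975. All BLM libraries lay above all Con libraries, a log2 difference of 1.42 (exact permutation p = 0.1, two-sided, the smallest that 3 against 3 can give) and of 1.78 without BLM replicate 3, while KO and KOBLM overlapped through KO replicate 2. Against Jun this was not so. The Junb/Jun ratio of BLM replicate 3 (0.485) lay within Con (0.425 to 0.5225, exact permutation p = 0.3). The share of Junb in the sum also overlapped, with 13.3% in BLM replicate 3 and 11.4% to 15.1% in Con.

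The Egr1/Fos ratio was 0.295, 0.279 and 0.2745 in Con and 0.901, 0.635 and 0.810 in BLM. It was 0.138, 0.361 and 0.108 in KO and 0.715, 0.359 and 0.316 in KOBLM. The Con libraries were nearly equal in it, and the BLM libraries lay above them by a log2 difference of 1.45 (exact permutation p = 0.1, two-sided), and of 1.42 without BLM replicate 3. Beside these, 13.1% of the tested genes had a higher ratio to Fos in BLM than in Con with no overlap. The Jun/Fos ratio was 0.868, 1.04 and 0.738 in KO, below the 1.12, 1.69 and 1.35 of Con in all 3 libraries, a log2 difference of -0.65 (exact permutation p = 0.1, two-sided), where 8.60% of genes had a lower ratio to Fos with no overlap.

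Of the 36 ratios that 9 of the genes (all but Fosl1) form, 11 did not overlap between BLM and Con, where 32.8% of all ratios of 2 tested genes with a mean of at least 100 CPM did not overlap. It was 9 between KOBLM and BLM beside 19.9%, 1 between KO and Con beside 10.6% and 1 between KOBLM and KO beside 7.40%. The 11 for BLM against Con are thus near the share over all genes, and 8 of them involved Fos or Fosb and 7 Junb or Egr1, where either pair of genes takes part in 15 of the 36. The ratios share genes and are not independent, and they were chosen after the levels had been seen.

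**Figure D3:**
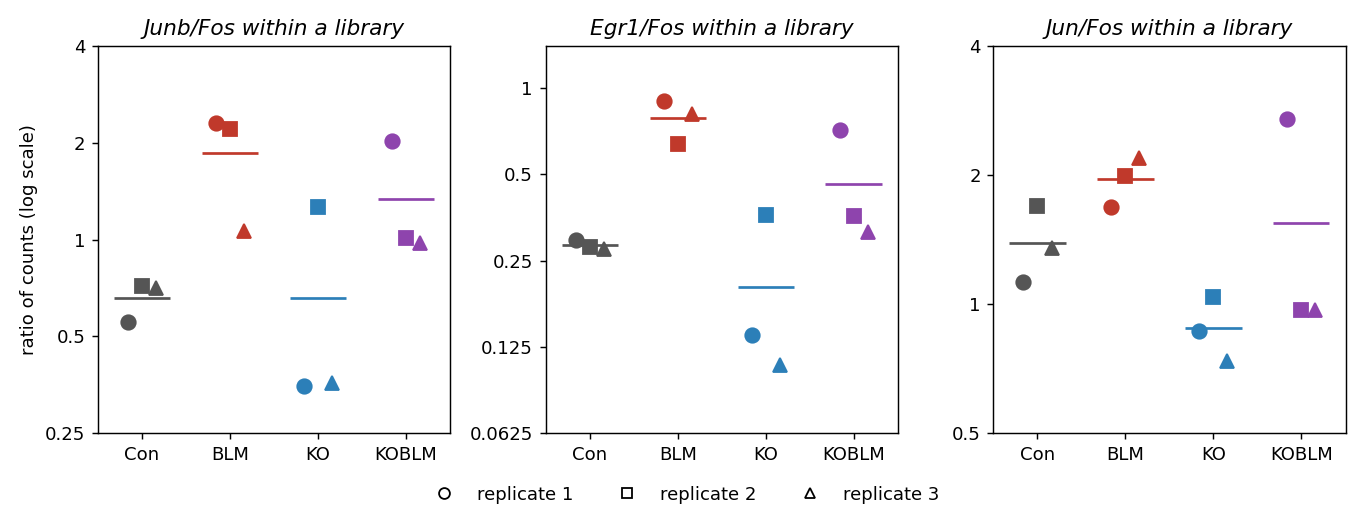
Ratio of counts of Junb, Egr1 and Jun to those of Fos within each library (vertical axes, log scale), by group, with horizontal lines at the mean ratio. The 3 BLM libraries lie above the 3 Con libraries for Junb/Fos (1.06 to 2.30 against 0.554 to 0.719) and Egr1/Fos, and the 3 KO libraries lie below Con for Jun/Fos.

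How the members varied together from mouse to mouse was read from rank correlations. Over the 12 libraries the rank correlation of CPM between pairs of the 9 genes ran from -0.18 to 0.91 with a median of 0.46, and over the 11 without BLM replicate 3 from -0.54 to 0.88 with a median of 0.32. Junb and Egr1 were the closest pair in both sets (0.91 and 0.88), and Fos and Junb the most distant (-0.18 and -0.54). These are descriptions, since the libraries share their totals and groups.

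Outside the set, the 5 tested genes whose CPM followed most closely the mean log2(CPM + 1) of the 10 genes over the 12 libraries were Nkx6-2, Prr7, Ston1, Ccar2 and Apoa2, the last tied with Krt7. Their rank correlations were 0.96, 0.95, 0.94, 0.94 and 0.94, and 0.93 to 0.96 over the 11 libraries without BLM replicate 3. All 5 were low, with at most 59.0 CPM in a library and 0 in at least 1.

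The summed level of the 10 genes moved with measures of the library. It ran from 3942 to 8168 CPM in 11 libraries and was 633 CPM in BLM replicate 3. With the number of genes that had a count it correlated at r = 0.84 and rho = 0.84 over the 12 libraries (permutation p = 0.00021 and 0.00117, adjusted over the 3 measures 0.00063 and 0.00351), and at r = 0.65 without BLM replicate 3 and KO replicate 3, which lie farthest from the median. Over the 11 libraries without BLM replicate 3 rho was 0.79 (permutation p = 0.00529, adjusted 0.0148). The permutations of this and the other library measures shuffled libraries across the 4 groups. Differences between groups therefore enter their p-values.

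With the macrophage marker sum the correlation was r = -0.08 and rho = -0.35 over 12 libraries (permutation p = 0.776 and 0.267, adjusted 0.776 and 0.267), and r = 0.28 without KO replicate 3 and Con replicate 3. Over 11 libraries without BLM replicate 3, rho was -0.75 (permutation p = 0.00988, adjusted 0.0148), so that the relation depends on that library. With the heat shock sum it was r = -0.77 and rho = -0.58 over 12 libraries (permutation p = 0.0078 and 0.0517, adjusted 0.0117 and 0.0776), r = -0.50 without BLM replicates 2 and 3, and rho = -0.45 over 11 libraries (permutation p = 0.160, adjusted 0.160). The part of these measures in the comparisons was not tested.

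**Figure D4:**
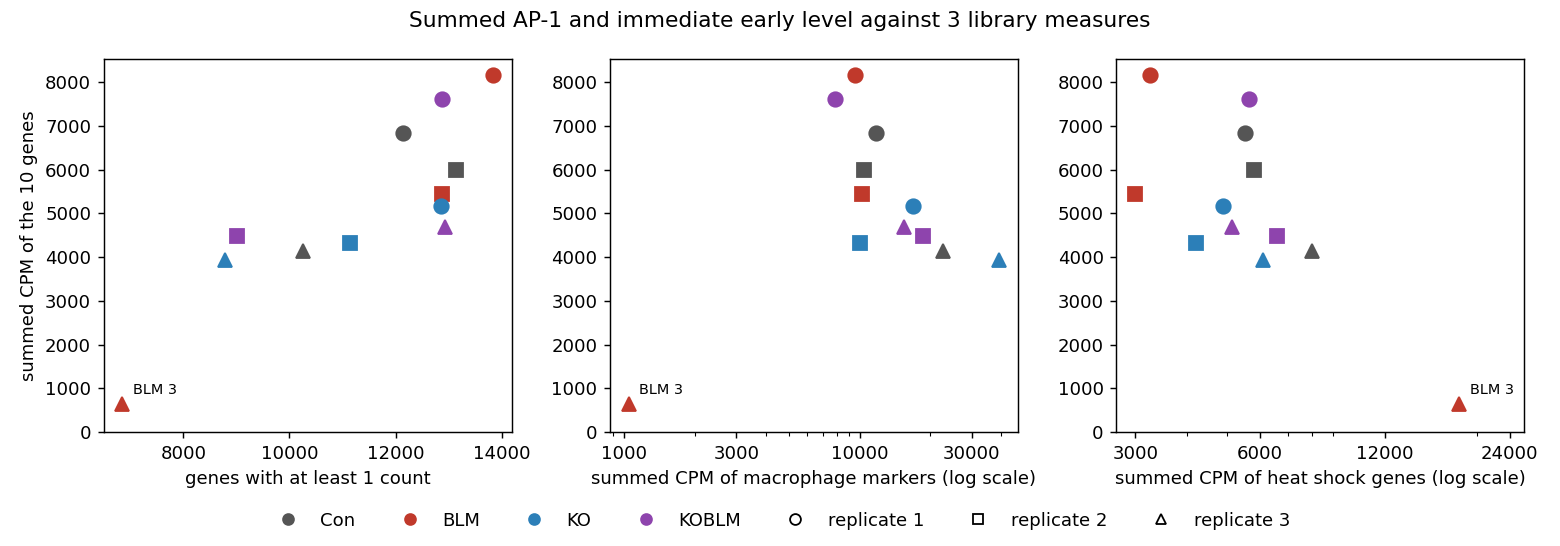
Summed CPM of the 10 genes (vertical axes) against the number of genes with a count, the summed CPM of 17 macrophage markers and the summed CPM of 14 heat shock genes (both marker sums on log scales), with 1 point per library. Libraries with fewer detected genes tend to lie lower, and BLM replicate 3, at 633 CPM, lies apart in all panels.

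Genes around the AP-1 pathway were counted by list for context. The threshold was passed by 4.27% of all tested genes for BLM against Con and 3.16% for KOBLM against BLM. These shares were 1.44% for KO against Con, 1.69% for KOBLM against KO and 2.82% for the interaction. Of 23 upstream kinases and ternary complex factors tested, 1 fell for BLM against Con, beside the 4.27%. It was Mapk3, the kinase ERK1. It stood at 763, 628 and 471 CPM in Con and at 216, 223 and 310.4 CPM in BLM, with no overlap, a log2 fold change of -1.33 ± 0.43 (SE, edgeR adjusted p = 0.995). For KOBLM against BLM it rose by 1.31 ± 0.43 (edgeR adjusted p = 1), and its interaction passed the threshold at 1.38 ± 0.60 (edgeR adjusted p = 1). Of the same list, Mapk11 passed for KOBLM against KO with at most 16.3 CPM in any library and 0 counts in all KO libraries, and 0 of 23 passed for KO against Con.

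Of 32 other immediate early genes tested, Ier3 and Sgk1 passed for BLM against Con in opposite directions with all 12 libraries. Over all tested genes 4.27% passed there. Ier3, a survival gene of the early response, stood at 143, 140.2 and 140.6 CPM in Con and at 1774, 675 and 198 CPM in BLM (log2 fold change 2.73 ± 1.05, edgeR adjusted p = 0.995). Sgk1, a kinase induced by glucocorticoids and serum, stood at 1211, 712 and 1000.2 CPM in Con and at 285, 309 and 203 CPM in BLM (-1.81 ± 0.45, edgeR adjusted p = 0.995), and stood in KOBLM at 696, 680.2 and 951 CPM (KOBLM against BLM 1.61 ± 0.45, edgeR adjusted p = 1). All BLM libraries lay above Con for Ier3 and below it for Sgk1, with BLM replicate 3 on the same side. Ier5l passed for KO against Con, for KOBLM against KO and for the interaction, but was at 0 in all KO libraries and at most 26.2 CPM elsewhere. The median log2 fold change of the list was 0.16 for BLM against Con, beside -0.08 over all tested genes. For KOBLM against KO this list median was 0.57, beside 0.08 over all tested genes.

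Of 20 feedback genes of the MAP kinases and of mRNA decay, 1 passed with all 12 libraries for BLM against Con, beside 4.27% of all tested genes. This was Dusp2, a nuclear phosphatase of MAP kinases (2.93 ± 1.29, edgeR adjusted p = 0.995), and none of the list passed in the other comparisons. Dusp2 stood at 2.67 to 10.7 CPM in Con and at 22.9 to 81.9 CPM in BLM, with no overlap. The median log2 fold change of the feedback list was 0.13 for BLM against Con, beside -0.08 over all tested genes. For KOBLM against KO it was 0.70, beside 0.08.

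Of 27 known AP-1 target genes tested, 5 passed as higher and 1 as lower for BLM against Con, where 4.27% of all genes passed. The median log2 fold change of the list was 1.36 beside -0.08 for all. The list median was also high without bleomycin, at 0.97 beside -0.09 for KO against Con. It was 0.11 beside 0.08 for KOBLM against KO. As the list was chosen with earlier results of these data known, its counts and medians are descriptions and not independent support. Mt2, a metallothionein, stood at 181, 204 and 205 CPM in Con and at 1959, 2226 and 778 CPM in BLM (3.16 ± 0.70, edgeR adjusted p = 0.900). Timp1, an inhibitor of matrix metalloproteinases, stood at 0.802, 0 and 0 CPM in Con and at 84.1, 77.6 and 171 CPM in BLM, and the elastase Mmp12 at 0 to 15.2 CPM in Con and 48.3 to 169.5 CPM in BLM. The groups did not overlap for Mt2, Timp1 or Mmp12. Lif and Sphk1 passed with 0 counts in all Con libraries and in BLM replicate 3 and at most 21.4 CPM in the others. Markers of other cells also differed between BLM and Con, in both directions. The summed level of 8 fibroblast markers was 91.2 to 457 CPM in Con and 1134 to 1845 CPM in BLM, and 2 of the 6 tested, the collagen genes Col1a2 and Col3a1, passed as higher. That of 6 airway markers was 23.4 to 128 CPM in Con and 217 to 246 CPM in BLM, and 1 of the 3 tested, the secretoglobin Scgb1a1, passed as higher. Scgb1a1 made up most of the airway sum in BLM, with 207 to 237 CPM. Only 1 of the 3 airway markers tested had a positive log2 fold change, with a median of -0.39. Neither the fibroblast nor the airway sum overlapped between the groups. Lymphocyte, endothelial and erythroid markers mostly went the other way. Of 10 lymphocyte markers tested, 1 had a positive log2 fold change and 3 passed as lower. Of 8 endothelial markers 2 were positive, and of 5 erythroid markers 0 were positive and 1 passed as lower. The part of these cells in the values of the target genes was not tested.

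Cd44, a hyaluronan receptor, fell, from 3344, 2938 and 4036 CPM in Con to 762, 1160 and 65.0 CPM in BLM (-2.23 ± 0.77, edgeR adjusted p = 0.995). Cd44 rose for KOBLM against BLM (1.64 ± 0.75, edgeR adjusted p = 1) and Mt2 fell (-2.68 ± 0.68, edgeR adjusted p = 1), and the interaction of Mt2 passed (-3.17 ± 0.93, edgeR adjusted p = 1). Hmox1, Mmp12 and Spp1 passed as higher and Itgb6 as lower for KO against Con, beside 1.44% of all tested genes. The Hmox1 and Spp1 values were largest in KO replicate 2, at 3117 and 8300.0 CPM, against 69.9 to 276 and 103 to 192 CPM in the other KO libraries. For KOBLM against KO only Timp1 passed, with 14.97 CPM in KOBLM replicate 3 and at most 0.535 CPM in the others.

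Of 14 heat shock genes, Hsp90aa1 passed as higher and Hspa5 as lower for BLM against Con, beside 4.27% of all tested genes. Hsp90aa1, a cytosolic chaperone, stood at 4693 CPM in BLM replicate 3 and at 238 and 199 CPM in the other BLM libraries, under the 267 to 544 CPM of Con, so its call rests on 1 library. Hspa5, the chaperone of the endoplasmic reticulum, stood at 1589.9, 2107 and 3969 CPM in Con and at 1029, 888 and 836 CPM in BLM with no overlap (-1.44 ± 0.43, edgeR adjusted p = 0.995). For KOBLM against BLM Hspa5 rose (1.33 ± 0.43, edgeR adjusted p = 1) while Hsp90aa1 and Hspd1 passed as lower, both at their highest in BLM replicate 3. The interaction of Hspa5 also passed (1.49 ± 0.60, edgeR adjusted p = 1).

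Without BLM replicate 3, the calls of Ier3, Sgk1, Dusp2, Mapk3, Cd44, Lif, Mt2, Sphk1, Timp1 and Hspa5 for BLM against Con were kept, that of Mmp12 was lost (3.30 ± 1.61, edgeR adjusted p = 0.890) and Hsp90aa1 turned to -0.63 ± 0.44 (edgeR adjusted p = 0.945). Mt2 then stood at 3.56 ± 0.59 (edgeR adjusted p = 0.0845). Sgk1, Mapk3, Cd44, Mt2 and Hspa5 kept their calls for KOBLM against BLM, while Hsp90aa1 turned to 0.71 ± 0.44 and Hspd1 to 0.13 ± 0.47 (edgeR adjusted p = 1 for both). The target list then had 6 genes higher and 1 lower for BLM against Con, where 5.45% of all tested genes passed. Mt1 and Ptgs2 were additional calls, and the median of the list was 1.95 beside 0.05 over all tested genes. The other immediate early genes had 3 higher and 2 lower (median 0.54), with Nfkbiz and Pim1 added as higher and Gadd45g as lower. The feedback genes had 3 higher and 0 lower (median 0.68), with Socs3 and Zfp36l1 added. Of the heat shock genes, Hsp90ab1 was added as lower for BLM against Con. For KOBLM against BLM, where 471 of 14084 tested genes passed, Gadd45g and Hsp90ab1 were added as higher and Srf and Elk4 as lower. Calls added for the interaction are not listed. These additional genes are named after their values were seen.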

How the data were processed

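The members and the gene lists were chosen with earlier results of these data known. The authors deposited raw counts of reads per gene symbol for each library, without normalization. The submitters' processing notes name Bowtie2, edgeR and mm10, with no roles or versions. The 79 entries of 35 repeated symbols were summed. Genes were filtered with filterByExpr by group (minimum count 10, minimum total 15), scaled by TMM and fitted with the quasi-likelihood model of edgeR 4.0.16 in R 4.3.3, with 1 term for each of the 4 groups. All tests were two-sided, and adjusted p-values follow Benjamini and Hochberg over all tested genes. A gene was called at a fold change over 1.5 (either way) and an unadjusted p under 0.05, the threshold of the study. Median log2 fold changes of lists and CPM were computed from the same counts. The fits were also run on simulated counts with a smaller spread than these data, whose fitted common dispersion was 2.08. The simulation held no library like BLM replicate 3, so it does not show how the fits behave here. Permutation tests of correlations used 100000 resamples. The alternatives were other scalings, no filter, a block for replicate numbers, fits of only the compared groups, an adjusted p, DESeq2 1.42.0 and leaving out each library. Named genes were the 10 members, Ep300, listed genes called in a comparison and the 5 tested genes most like the members. C1qa and Ccdc85b were named after their values were seen. Nothing in the labels gives a batch. The result of the list of AP-1 partners is not reported here.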

Additional observations from a re-analysis of the deposited data

Results flagged for a closer look

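Fosb was looked at again because its bleomycin libraries lay on opposite sides of the PBS group means in the 2 genotypes. All 3 BLM libraries lay below the mean log2 level of Con, and all 3 KOBLM libraries lay above that of KO, with a difference of 2.41 between the bleomycin effects on the scale of log2(CPM + 0.5). This difference was 1.30 without BLM replicate 3, a library that stood apart. The interaction in the edgeR fit was 1.81 ± 1.07 (SE, adjusted p = 1) with all 12 libraries and 1.28 ± 0.69 (SE, adjusted p = 1) without BLM replicate 3, and passed the threshold in neither. The values without BLM replicate 3 were added after the data had been seen. The groups held 3 libraries each, too few for a check of single libraries against their group.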

How the results depend on the processing

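No scaling called a member: DESeq2 size factors, the library size alone and DESeq2 left the count at 0 of 10 in all 5 comparisons. BLM against Con gave 1 of 10 with no low-count filter (Fosb, beside 771 of 17480 genes), and leaving out 1 library gave 0 to 2, with 1 without BLM replicate 1 (Fosb, beside 490 of 13804 genes) and 2 without BLM replicate 3 (Junb and Egr1, beside 767 of 14084 genes). Same-numbered libraries did not deviate together over all genes (correlations -0.114 to 0.096), which cannot show whether they shared a day or batch. With the replicate number as a block, 1 of 10 passed for BLM against Con, 1 for KOBLM against BLM and 1 for the interaction. Each time it was Fosb (-1.60, 1.43 and 2.19), beside 394, 262 and 242 of 13054 genes.

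Directions turned in a few cases, and the cause was not tested. With the replicate block, KOBLM against BLM turned to 0.19 for Junb and 0.13 for Egr1. Ier2 for BLM against Con turned to 0.0023 with DESeq2 size factors, 0.0019 with DESeq2 and 0.0431 without the ribosomal transcript Rn45s. Leaving out 1 library in turn, BLM against Con ran from -0.98 to 0.0932 for Fosl2, -0.83 to 0.18 for Jun, -0.73 to 0.24 for Jund, -0.19 to 1.25 for Egr1 and -0.36 to 0.27 for Ier2. KOBLM against BLM ran from -0.80 to 0.45 for Junb and -0.83 to 0.62 for Egr1. Among 40 pairs of a member and a comparison, 0 did not overlap in CPM, beside 11.2% over all tested genes, and 0 to 7 did not when 1 library was left out, beside 14.2% to 17.9%. The 7 (17.5%) were without KO replicate 2, beside 15.6% of genes. Leaving out Rn45s, leaving out libraries for CPM and ratios, and leaving out BLM replicate 3 for the gene lists, were chosen after seeing the data. With 3 mice a group, only large differences could pass.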
